A study of Mus musculus with 39 samples.

Results

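Mouse embryos cloned from cumulus cells and treated with trichostatin A (TSA) were compared with embryos produced by in vitro fertilization (IVF), both at the 2-cell stage. The comparison rests on the 6 arrays labelled as cumulus clones with TSA, called TSA(+) here, and the 6 arrays labelled as fertilized embryos, which makes 12 of the 39 arrays in the series. Arrays were taken by these labels and not by any measured value, although the comparison was chosen with earlier results of these data known. The question behind the comparison is which genes and functions were still abnormal in clones after the drug.

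The series measured RNA on Agilent 1-colour arrays in oocytes, fertilized embryos, clones with and without TSA, clones injected with Spi-C mRNA, and cumulus cells. All embryos carried the (B6xDBA/2)F1 background. For the TSA(+) group, cumulus nuclei were placed in enucleated oocytes, and 5 nM TSA was present for 8 h from the time of activation. IVF embryos and clones were both kept 24 h in KSOM medium, and each array received RNA from a pool of 10 embryos that had been amplified linearly in a pair of rounds and labelled with Cy3. A further 8 arrays of clones without TSA, called TSA(-), differ from TSA(+) in the drug by their labels and are used for comparison. Cumulus cells come from females, whereas a pool of fertilized embryos can hold both sexes.

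In nuclear transfer the oocyte must turn a differentiated nucleus back into one that can start development, and the earliest wide test of this is zygotic genome activation, the switch from stored maternal RNA to new embryonic transcription, which in the mouse runs mainly at the 2-cell stage. TSA blocks class I and class II histone deacetylases, so histones keep more acetyl groups and chromatin is more open, and the drug is widely used to raise the yield of clones. Known weak points of clones are Xist, the RNA that silences an X chromosome, imprinted genes, whose activity depends on the parent of origin, and genes that lie in the donor nucleus in chromatin closed by histone H3 lysine methylation.

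Levels are log2 signals minus the 75th percentile of the same array, so that 0 is the level of a fairly bright probe, and differences are TSA(+) minus IVF on the log2 scale with the standard error of the limma fit (6 against 6 arrays). The 75th percentile itself lay at a signal of 997 to 1364 on IVF arrays and 1237 to 1587 on TSA(+) arrays, and 69.6 to 76.3% and 68.6 to 75.4% of probes were well above background. A probe or gene is called when its Benjamini-Hochberg adjusted p over all 39520 probes tested is under 0.01. For a probe that was below background on some or all arrays of the dimmer group, the size is uncertain. For most of these the change is given as an approximate lower bound ("at least N-fold"). It is taken against the lowest signal that is well above background on each array, or the measured value where that is higher. This floor is shared by all probes of an array, and the detection limit of a single probe may be higher. The true change can then be smaller than the bound. For the others the measured difference is given with the number of arrays above background.

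Markers of cell types were set against the labels. All 6 tested markers of the 2-cell stage and all 8 tested oocyte markers were well above background on every IVF and every TSA(+) array. Of the 4 Y-linked markers, all 4 were above background on every IVF array and on no TSA(+) array. Among 10 cumulus markers, 6 were above background on every IVF array and 7 on every TSA(+) array. None of the 10 was called higher in TSA(+) than in IVF embryos and 1 was called lower. Of 3 tested blood markers the macrophage gene Adgre1 was above background on no IVF and no TSA(+) array, and Lyz2 was above background on every one, but its difference of -0.44 ± 0.44 was not called.

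TSA-treated clones differed from fertilized embryos over a large part of the array. Of 39520 probes, 3093 (7.83%) were called higher and 4388 (11.1%) lower, and 5816 of these 7481 had no overlap between the 6 TSA(+) and 6 IVF arrays. Counted by gene, each through its brightest probe, 1905 of 18602 (10.2%) were called higher and 2656 (14.3%) lower. The measured difference was at least 2 log2 units for 492 of the higher and 755 of the lower genes, a count that takes signals below background as they are. The balance of directions rested on how arrays were scaled. With the 75th percentile the median difference of all probes was -0.23 and 41.3% of calls were higher. Centring on the array median moved the median to -0.02 and gave 4179 higher and 2857 lower probes (59.4% higher). Quantile normalization moved it to 0.01 and gave 3880 and 3756 (50.8%). No called probe reversed its call under either scaling. Changes of gene groups are therefore given beside the median of all genes, -0.20.

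IVF and TSA(+) arrays shared 3 slides, numbered 6, 7 and 8 here in order of appearance, which hold 9 of the 12 arrays. Of the called probes, 97.3% had the sign of the whole comparison within all 3. With slide as a block in the fit, 5712 of the 7481 called probes kept call and direction. In RNA from pooled embryos, fewer cells of a type and less RNA per cell cannot be told apart, nor can a change in every embryo and a change in some.

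Bfsp1, which encodes the lens filament protein filensin, ran from -6.09 to -2.56 (median -3.41) in IVF and from 5.71 to 6.81 (median 6.38) in TSA(+) embryos, and was higher by 10.05 ± 0.46 (adjusted p 1.2e-15). Ambp, the precursor of a plasma lipocalin and a protease inhibitor made in liver, ran from -7.61 to -5.35 (median -5.94) in IVF and from 1.24 to 2.08 (median 1.67) in TSA(+) embryos. The groups of both genes lay far apart, and Ambp, which 4 of 6 IVF arrays measured above background, differed by 7.97 ± 0.43. Mamdc2, a gene of an extracellular matrix protein, was bright in both groups, from -1.31 to -0.16 (median -0.36) in IVF and from 4.88 to 5.54 (median 5.20) in TSA(+) embryos, a difference of 5.71 ± 0.29. Within slides 6, 7 and 8 the Bfsp1 difference was 9.74, 10.66 and 8.84, and that of Mamdc2 was 5.27, 5.62 and 5.84. Without TSA the clones differed from IVF by 10.73 for Bfsp1, 8.15 for Ambp and 5.41 for Mamdc2.

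The cell death genes Ripk3 and Dffb were also among the 12 largest increases, ordered by measured difference. The p53 and apoptosis list described below held 3 higher and 7 lower of 28. Ripk3, the kinase that starts necroptosis, was higher by 6.60 ± 0.69 (5 of 6 IVF arrays above background). Its size rests in part on IVF replicate 6, which was below background: without that array the difference was 5.61, within slides 6, 7 and 8 it was 2.98, 6.50 and 12.04, and on the shared slides alone the call was lost (adjusted p 0.01). Dffb, the nuclease that cuts DNA in apoptosis, was at least 45.6-fold higher (6.20 ± 0.34; 1 of 6). Genes of photoreceptors made up another pair: phosducin, Pdc, was at least 28.9-fold higher (6.36 ± 0.63) and rhodopsin kinase, Grk1, at least 53.7-fold (6.24 ± 0.59), with 0 and 1 of 6 IVF arrays above background. Transporters were represented by the zinc carrier Slc39a8, at least 39.8-fold higher (6.36 ± 0.65), and the glycerol channel Aqp7, at least 62.8-fold (6.24 ± 0.43). The remaining members were the homeobox gene Pknox2 (6.01 ± 0.33), the collagen Col27a1 (at least 46.7-fold, 5.92 ± 0.32) and the axonal adaptor Fez1 (5.59 ± 0.58, 5 of 6 IVF arrays above background). None of these 12 overlapped between TSA(+) and IVF arrays, a property the selection required. A second probe of Pknox2 and of Col27a1 was not called, while that of Slc39a8 was.

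Among the large decreases was Eif2s3y, a Y-linked gene described below, and the other 9 given here encode regulators of transcription. Zic1, a zinc finger factor of the cerebellum and neural crest, ran from -0.61 to 1.43 (median -0.05) in IVF and from -9.54 to -8.32 (median -9.02) in TSA(+) embryos, was above background on no TSA(+) array and was at least 277-fold lower (-9.08 ± 0.30, adjusted p 1.5e-18). Within slides 6, 7 and 8 its difference was -9.67, -8.73 and -8.70, and no TSA(+) array reached the lowest IVF array. Without TSA the Zic1 difference from IVF was -8.91.

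Forkhead genes were represented by Foxd1, of kidney stroma and retina, at least 630-fold lower (-10.17 ± 0.91, 1 of 6 TSA(+) arrays above background), and Foxc2, of mesenchyme and lymphatic vessels, at least 221-fold (-7.99 ± 0.78, 4 of 6). Neural regulators included Dmrta2, needed for the cerebral cortex (at least 298-fold, -9.40 ± 0.78), the oligodendrocyte factor Olig1 (at least 179-fold, -8.38 ± 0.42) and the motor neuron factor Mnx1 (at least 200-fold, -8.09 ± 0.34). Hoxa10, which patterns the posterior body, was at least 216-fold lower (-8.97 ± 0.43), Klf14, an imprinted Krüppel-like factor, at least 140-fold (-7.88 ± 0.60), and Cdx2, the trophectoderm factor, at least 140-fold (-7.85 ± 0.87). Of Hoxa10, Mnx1 and Klf14 no TSA(+) array rose above background, and of Dmrta2, Olig1 and Cdx2 1 of 6 did. All 9 were above background on every IVF array, as the selection required.

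**Figure D1:**
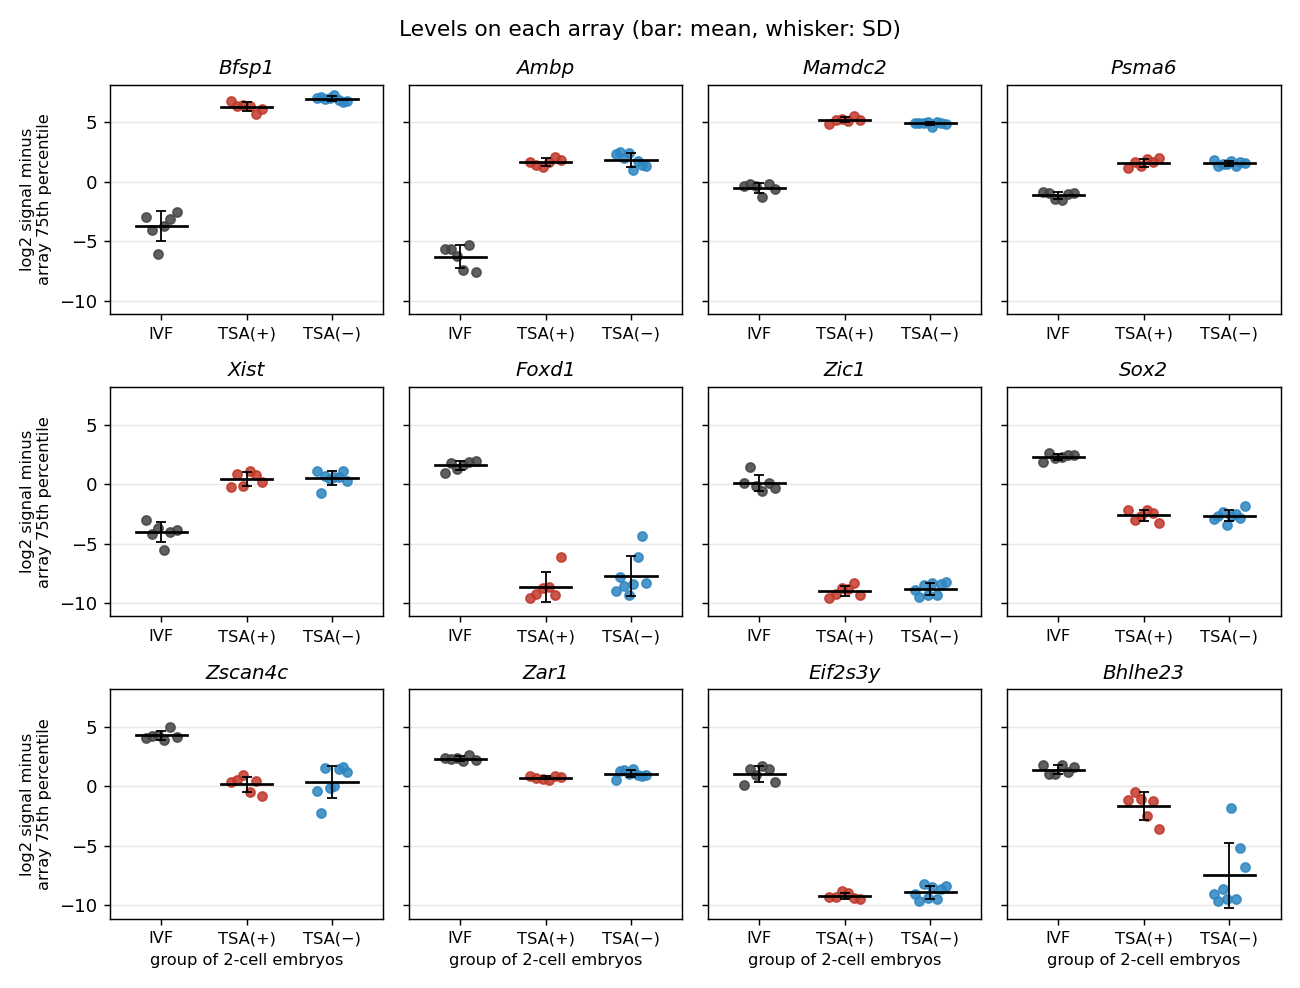
Log2 signal minus the array's 75th percentile for 12 genes on the 6 IVF, 6 TSA(+) and 8 TSA(-) arrays, with points for arrays, bars for group means and whiskers for the SD. Bfsp1, Ambp, Mamdc2, Psma6 and Xist lie higher in TSA(+) than in IVF embryos and the other 7 lower, and for Bhlhe23 the TSA(+) arrays have a median of -1.19 and the TSA(-) arrays one of -8.81.

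Promoters of the genes at both ends are printed because TSA acts on chromatin and CG content is a feature of promoters that can be set beside the changes. RefSeq's promoter table (build GRCm38.p6) matched 10 of the 12 largest increases and 7 of the 10 largest decreases reported. Shown are the first 3 matched of each in order of size, as the 250 bases upstream of the first start listed for the gene, 5′ to 3′ on the gene's own strand, with every CG (the site of DNA methylation, the same on both strands) in capitals.
Bfsp1: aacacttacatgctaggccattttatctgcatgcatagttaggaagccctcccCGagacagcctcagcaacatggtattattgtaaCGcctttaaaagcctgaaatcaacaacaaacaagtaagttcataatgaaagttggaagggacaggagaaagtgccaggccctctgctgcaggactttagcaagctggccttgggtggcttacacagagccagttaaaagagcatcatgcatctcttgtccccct
Ambp: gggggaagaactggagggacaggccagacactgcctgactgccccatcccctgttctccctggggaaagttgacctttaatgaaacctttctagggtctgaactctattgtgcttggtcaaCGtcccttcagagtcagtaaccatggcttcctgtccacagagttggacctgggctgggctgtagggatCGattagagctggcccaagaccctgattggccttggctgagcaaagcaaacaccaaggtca
Ripk3: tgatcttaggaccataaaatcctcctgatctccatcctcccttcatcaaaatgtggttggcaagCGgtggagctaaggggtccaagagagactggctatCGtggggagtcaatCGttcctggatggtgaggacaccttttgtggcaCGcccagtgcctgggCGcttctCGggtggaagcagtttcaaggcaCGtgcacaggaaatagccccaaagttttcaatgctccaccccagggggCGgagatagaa
Eif2s3y: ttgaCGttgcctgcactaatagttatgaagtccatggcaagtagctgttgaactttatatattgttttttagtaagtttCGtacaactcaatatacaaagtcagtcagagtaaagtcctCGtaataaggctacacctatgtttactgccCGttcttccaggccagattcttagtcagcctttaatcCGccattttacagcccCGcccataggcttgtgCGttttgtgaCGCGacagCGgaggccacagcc
Foxd1: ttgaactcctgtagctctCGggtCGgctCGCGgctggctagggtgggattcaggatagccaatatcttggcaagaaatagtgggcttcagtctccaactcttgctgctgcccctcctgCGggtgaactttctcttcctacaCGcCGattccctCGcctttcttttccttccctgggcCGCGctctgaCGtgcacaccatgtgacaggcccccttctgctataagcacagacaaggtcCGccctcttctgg
Dmrta2: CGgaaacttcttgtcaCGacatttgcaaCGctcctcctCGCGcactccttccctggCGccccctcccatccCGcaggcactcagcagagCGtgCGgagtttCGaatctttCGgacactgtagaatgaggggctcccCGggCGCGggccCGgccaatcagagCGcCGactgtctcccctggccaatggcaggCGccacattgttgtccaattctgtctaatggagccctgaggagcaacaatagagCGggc

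The dinucleotide CG, a cytosine followed by a guanine, was found 2, 2 and 8 times in the promoters of Bfsp1, Ambp and Ripk3 and 10, 12 and 19 times in those of Eif2s3y, Foxd1 and Dmrta2. Of the genes tested that have a promoter in the table, 94.7% held at least 1 CG in these 250 bases, against 91.7% of all promoters listed. The median count was 12 over all tested genes, 15 over called higher and 10 over called lower genes. Among genes whose measured difference was at least 2 log2 units it was 11 for the higher and 6 for the lower ones.

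Transcripts of a list known from the 2-cell embryo stayed below the fertilized level in part. Of 15 tested genes of this list, 0 were called higher and 5 lower (33.3% lower beside 14.3% of all genes), with a median difference of -0.96, -0.76 from all genes (3 lower after median centring and 6 after quantile normalization). Zscan4c, a telomere-regulating gene expressed in a burst at this stage, ran from 3.93 to 4.95 (median 4.19) in IVF and from -0.78 to 0.95 (median 0.40) in TSA(+) embryos and fell in TSA(+) embryos (-4.11 ± 0.59, adjusted p 3.9e-06), with slide differences of -3.65, -4.18 and -4.07. The groups did not overlap, and a second probe was also called lower. Tcstv1 (-1.46 ± 0.28), Usp17la (-1.50 ± 0.31), a deubiquitinase, and the homeobox gene Obox3 (-1.93 ± 0.49) were lower too, whereas Zfp352 (-0.59 ± 0.24) was not called in the main fit but passed as lower with normexp (adjusted p 0.0005) and when IVF and TSA(+) arrays (0.0069) or IVF and both clone groups (0.0023) were fitted alone. Zscan4, Tcstv and Usp17l genes come in near-identical copies, so which copy a probe measured is uncertain. Obox3 lost its call with slide as a block (adjusted p 0.028) and after median centring (0.011). The fifth called gene, the zinc finger factor Zfp750 (-1.63 ± 0.44), lost it in both as well (0.026 and 0.018) and in 7 of the 12 fits that left out 1 array (adjusted p 0.01 to 0.017). Not all of these transcripts are particular to the stage on these arrays: Zfp750 had a mean level of 6.77 in oocytes and 4.34 in IVF embryos, and Obox3 (3.98), Tcstv1 (4.16) and Zscan4c (0.67) were above background on every oocyte array too.

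The transcription factors and signalling genes that the study itself followed were in part chosen on these samples, so their direction is not independent evidence. Of 8 genes 3 were called lower (37.5% beside 14.3% of all genes) and 0 higher, and 1 and 2 lower after median centring and quantile normalization, with a median of -1.07 in TSA(+) and -1.77 in TSA(-) embryos, which share the IVF arrays. Elf3, an epithelial ETS factor, ran from 1.83 to 2.39 (median 2.28) in IVF and from 0.50 to 1.19 (median 0.84) in TSA(+) embryos, without overlap, a difference of -1.34 ± 0.24. Cdx4, a caudal-type homeobox gene on the X chromosome, was at least 8.33-fold lower (-3.20 ± 0.90, 3 of 6 TSA(+) arrays above background), with overlapping groups. That call was lost after median centring (adjusted p 0.012), after quantile normalization (0.016) and in 8 of the 12 fits without 1 array (0.013 to 0.028).

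Bhlhe23, also called lower (-3.07 ± 0.85), is described further below with the alternatives that ended its call. For the other genes of this group the differences did not pass the test. They were -0.96 ± 0.47 for the ETS factor Spic, -1.17 ± 0.58 for interferon gamma (Ifng), -0.83 ± 0.34 for the initiation factor Eif1a, -0.60 ± 0.25 for the kinase Hipk1 and -0.56 ± 0.30 for the phosphatase regulator Ppp1r8. Without TSA the same genes differed from IVF by -1.90, -1.96, -1.02, -1.17 and -0.99. Spic and Ppp1r8 overlapped between TSA(+) and IVF arrays. Ifng, Eif1a and Hipk1 did not overlap on the brightest probe, and further probes of each were not called either. When the IVF and TSA(+) arrays were fitted alone, without the oocyte, cumulus and TSA(-) arrays, Spic (adjusted p 0.0011), Ifng (0.001), Eif1a (0.001) and Hipk1 (0.0065) passed the threshold as lower.

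Transcripts known from the oocyte were lower as a group in TSA(+) clones. Of 30 tested oocyte transcripts 10 were called lower and 0 higher (33.3% lower beside 14.3% of all genes; median -0.53, -0.33 from all genes). Nlrp4f, an oocyte member of the NLR family, ran from 6.94 to 7.42 (median 7.30) in IVF and from 5.36 to 5.89 (median 5.54) in TSA(+) embryos, a difference of -1.64 ± 0.16. Zar1, a maternal-effect gene that binds stored RNA, ran from 2.10 to 2.63 (median 2.31) and from 0.54 to 0.84 (median 0.73), a difference of -1.61 ± 0.18. Ooep, part of the subcortical maternal complex, differed by -1.63 ± 0.28 and Npm2, a histone chaperone that remodels the sperm nucleus, by -1.48 ± 0.25. None of these 4 overlapped between the groups. Gdf9 (-0.42 ± 0.15) and Bmp15 (-0.40 ± 0.13), growth factors secreted by the oocyte, were not called in the main fit, but passed as lower when IVF and both clone groups were fitted alone (adjusted p 0.0019 and 0.0034). Under median centring and quantile normalization 8 and 10 of the list were called lower.

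A wider oocyte list was drawn from arrays outside the comparison, oocytes against cumulus cells. The cumulus arrays were read with another scanner model and a later Feature Extraction version than the oocyte arrays, so membership of this list and of the donor list below rests on a comparison across both. It held the 532 genes at least 4 log2 units higher in oocytes than in cumulus cells, above background on every oocyte array and no cumulus array. Of these, 20 were called higher and 200 lower (3.76 and 37.6% against 10.2 and 14.3% of all genes), with a median of -0.86, or -0.44, -0.63 and -0.68 relative to all genes within slides 6, 7 and 8 and -0.60 with slide as a block. The list includes Sox2 and the homeobox genes Irx2 (-6.51 ± 0.52) and Dbx1 (-6.07 ± 0.48), known from the nervous system. These examples were brighter in IVF embryos than in oocytes. Mean levels in oocytes and IVF embryos were 1.88 and 2.30 for Sox2, -3.49 and 1.22 for Irx2 and -1.13 and 2.89 for Dbx1. A lower level in TSA(+) embryos is thus not the same as a loss of oocyte RNA. The median in TSA(-) clones was -0.58.

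Genes of the donor cell showed the opposite balance. The 540 genes at least 4 log2 units higher in cumulus cells than in oocytes, above background on every cumulus array and no oocyte array, held 138 called higher and 48 lower (25.6 and 8.89% beside 10.2 and 14.3% of all genes), with a median of 0.30 against -0.20 for all genes. Relative to all genes the median was 0.20, 0.61 and 0.61 within the 3 slides and 0.48 with slide as a block, and without TSA it was 0.29 over all arrays, beside 0.50 with it. Of these genes 371 were above background on every TSA(+) array and 351 on every IVF array. Ripk3 belongs to this list, as do Mdfic, an inhibitor of MyoD-family factors (at least 25.4-fold higher, 2 of 6 IVF arrays above background), and Hacl1, a peroxisomal lyase (4.44 ± 0.27), while the small GTPase Rhoj (at least 48.4-fold lower, 3 of 6 TSA(+) arrays above background) went the other way. The curated cumulus list, by contrast, held 2 higher and 2 lower of 35 (5.71 and 5.71%; median -0.12; 4 and 1 after median centring).

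Of the 4 curated cumulus genes called, natriuretic peptide receptor Npr2 (1.80 ± 0.45, 5 of 6 IVF arrays above background) and Kit ligand, Kitl (1.33 ± 0.32), were higher, and aromatase, Cyp19a1 (-1.43 ± 0.33), and the hyaluronan-binding Tnfaip6 (-2.47 ± 0.69) lower. Alternatives ended all 4 calls, that of Cyp19a1 on the shared slides alone (adjusted p 0.033). Kitl lost its call with slide as a block (adjusted p 0.024), Npr2, which had a difference of -0.72 within slide 6, without IVF replicate 5 (1.47, adjusted p 0.013), and Tnfaip6 after median centring (0.015) or quantile normalization (0.044) and in 9 of the 12 fits without 1 array (0.011 to 0.03). Other probes of Npr2, Kitl and Cyp19a1 were not called, those of Npr2 and Kitl with the opposite sign, and the groups of both overlapped. Levels in the source cells did not all follow the name of the list: Cyp19a1 had a median of 8.21 in oocytes and 1.00 in cumulus cells and Kitl of 1.48 and -2.37, whereas Npr2 (-6.21 and 2.87) and Tnfaip6 (-6.10 and 5.97) were brighter in cumulus cells.

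Y-linked genes were nearly all lower. Of 8 tested 7 were called lower (87.5% beside 14.3% of all genes). The median was -6.59, or -5.33 over the 7 measured in IVF embryos with dim genes set at their bound. Eif2s3y, the Y copy of a subunit of initiation factor eIF2, ran from 0.07 to 1.71 (median 1.23) in IVF and from -9.45 to -8.83 (median -9.34) in TSA(+) embryos, all 6 below background, and was at least 527-fold lower (-10.22 ± 0.41). The RNA helicase Ddx3y was at least 38.2-fold lower (-6.65 ± 0.32), the ubiquitin protease Usp9y at least 46.3-fold (-6.68 ± 0.30), the zinc finger gene Zfy1 at least 88.9-fold (-6.67 ± 0.41), and the histone demethylase Kdm5d at least 40.3-fold (-6.53 ± 0.39), while its relative Uty was above background on every IVF and no TSA(+) array. Groups did not overlap for any of them. The sex of the embryos in the pools and the method that made them cannot be told apart in these genes.

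Xist was higher in the clones by its brightest probe. Its level ran from -5.54 to -3.01 (median -3.93) in IVF, from -0.27 to 1.09 (median 0.48) in TSA(+) and from -0.71 to 1.14 (median 0.59) in TSA(-) embryos, a difference of 4.46 ± 0.54 from IVF with TSA (adjusted p 2.4e-07) and 4.55 without. Slide differences were 2.74, 4.67 and 3.87, and the groups did not overlap. The other 3 Xist probes, below background on every IVF array, were not called (0.10 to 1.90), so the result rests on 1 of 4 probes. Its antisense gene Tsix (-1.40 ± 0.55, 2 of 6 TSA(+) arrays above background) was not called. Ciz1, which anchors Xist RNA in the nucleus, was higher (1.97 ± 0.23) and Spen, the repressor that Xist recruits, was lower (-0.92 ± 0.20) with overlapping groups, a call lost after median centring (adjusted p 0.02). Of the 9 tested X-inactivation genes these 3 were the called ones, 2 higher and 1 lower (22.2 and 11.1% beside 10.2 and 14.3% of all genes). A second Ciz1 probe was not called. For Xist, as for the Y-linked genes, the sex of the embryos in the pools and the method that made them cannot be told apart.

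The X chromosome as a whole leaned lower. Of 681 tested X-linked genes 39 (5.73%) were called higher and 139 (20.4%) lower, against 10.4 and 14% of 17906 autosomal genes. The X median of -0.38 lay at -0.18 relative to all genes, at -0.27, -0.16 and -0.31 within slides 6, 7 and 8, and at -0.24 with slide as a block. Both alternative scalings gave -0.18. Without the Mage, Xlr, Rhox and Fthl17 families, 19.2% of 656 genes were lower. In TSA(-) clones the X median was -0.29. The number of X chromosomes in the embryos and the method that made them cannot be told apart here.

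Several germline and placental gene families on the X chromosome followed. Of 25 tested Mage, Xlr, Rhox and Fthl17 genes 13 were lower and 1 higher (52 and 4% beside 14.3 and 10.2% of all genes; median -1.27; -1.77, -1.0 and -1.64 from all genes within the 3 slides). Magea8 ran from -2.93 to -1.84 (median -2.28) in IVF and from -5.91 to -5.02 (median -5.32) in TSA(+) embryos, without overlap (-3.08 ± 0.24). Rhox13, a germline homeobox gene, was at least 12.9-fold lower (-4.41 ± 1.09), with overlapping groups. Its size is uncertain, since 5 of 6 IVF and 1 of 6 TSA(+) arrays were above background and slide differences were -8.58, -3.22 and -5.97. The Rhox13 call was lost when IVF and TSA(+) arrays (adjusted p 0.029) or IVF and both clone groups (0.013) were fitted alone and on the shared slides (0.046). The exception was Rhox5, a homeobox gene of placenta and testis, which was higher (4.31 ± 0.81, 5 of 6 IVF arrays above background, and 3.63 without IVF replicate 4). Mage and Xlr genes come in close copies, so single members are uncertain.

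**Figure D2:**
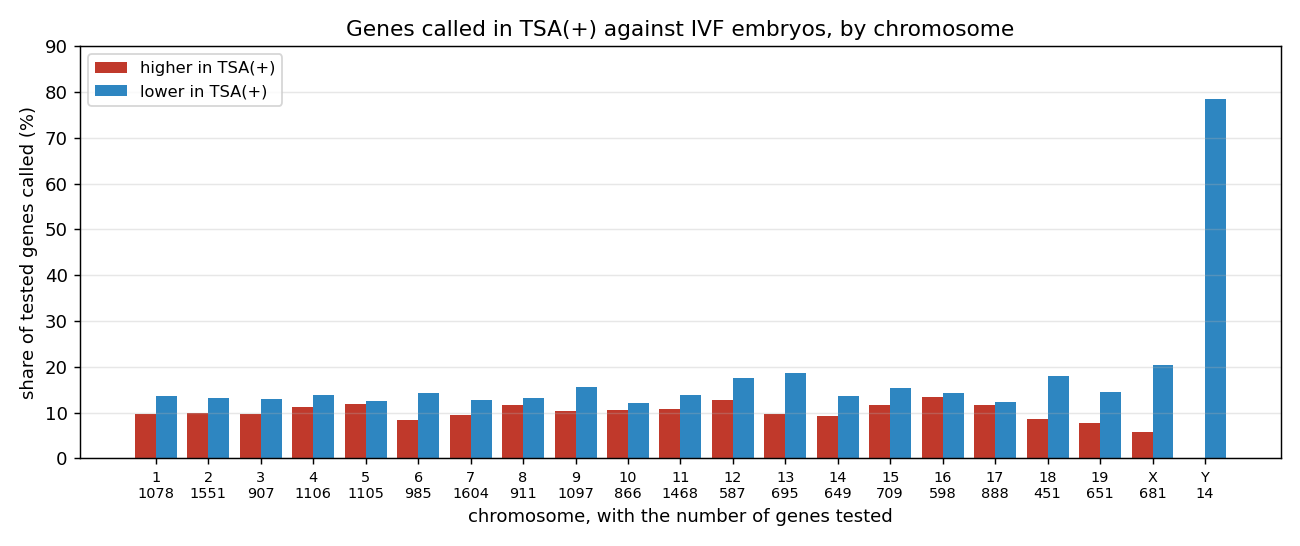
Share of tested genes called higher and lower in TSA(+) than in IVF embryos (percent, bars from 0) for each chromosome, with the number of genes tested under its name. The X chromosome has 5.73% higher and 20.4% lower and the Y chromosome 78.6% lower, against 10.4 and 14% over the autosomes.

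Of 45 tested imprinted genes 7 were called higher and 11 lower (15.6 and 24.4% beside 10.2 and 14.3% of all genes). Their median of -0.26 lay at -0.06 from all genes, and at -0.23, -0.26 and 0.15 within slides 6, 7 and 8. Calcr, the calcitonin receptor, ran from -5.43 to -2.07 (median -2.29) in IVF embryos and was above background on no TSA(+) array, at least 33.2-fold lower (-6.27 ± 0.63). Nnat, a membrane protein of the endoplasmic reticulum, ran from -1.75 to 0.15 (median -1.02) in IVF and from -5.40 to -3.41 (median -4.54) in TSA(+) embryos, a difference of -3.58 ± 0.45. On the higher side, Zdbf2 was at least 4.24-fold higher (2.96 ± 0.54, 3 of 6 IVF arrays above background), although its groups overlapped and its other probes were not called. Its slide differences were 0.03, 2.71 and 5.37, and the call was lost with normexp (0.55, adjusted p 0.011) and on the shared slides alone (0.073). Sfmbt2, a placental Polycomb gene imprinted without DNA methylation, was not called on its brightest probe (0.47 ± 0.62), while a pair of dimmer probes was called higher (3.50 ± 0.52 and 1.76 ± 0.34, each with 4 of 6 IVF arrays above background).

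Among the enzymes that TSA acts on, the transcripts of class I deacetylases did not pass the test. Differences were -0.34 ± 0.22 for Hdac2, -0.34 ± 0.20 for Hdac3 and 0.07 ± 0.35 for Hdac8, and Hdac1 had no matched probe. A second, dimmer Hdac8 probe differed by -1.28 ± 0.39 and narrowly missed the threshold (adjusted p 0.013). Of 17 tested deacetylase genes 2 were higher and 2 lower (11.8 and 11.8%), near the 10.2 and 14.3% of all genes. The 4 were sirtuins, which TSA does not inhibit. Sirt5, a mitochondrial desuccinylase, was lower (-1.62 ± 0.22), as was Sirt4 (-0.85 ± 0.19), whose call was lost with slide as a block (adjusted p 0.017) and after median centring (0.016). Sirt1 (1.12 ± 0.26), of which a second probe was not called, and Sirt3 (0.80 ± 0.21) were higher, Sirt3 without a call when slide was a block (0.014) and in 5 of the 12 fits without 1 array (0.01 to 0.014). Without TSA the differences from IVF were -1.90 for Sirt5, -1.44 for Sirt4, 0.71 for Sirt3 and 0.76 for Sirt1, the last not called.

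Acetyltransferases and bromodomain readers of acetylated histones held 4 higher and 0 lower of 17 (23.5% higher beside 10.2% of all genes), 4 and 0 after median centring and 4 and 1 after quantile normalization. The 4 were Kat2b (3.01 ± 0.31), Hat1 (0.82 ± 0.17), Kat8 (0.56 ± 0.15) and Kat7 (0.44 ± 0.12). The last lost its call with slide as a block (adjusted p 0.018), and both Kat7 (0.01 to 0.02) and Kat8 (0.011 to 0.016) lost it in 7 of the 12 fits without 1 array. Kat2b, the coactivator PCAF, ran from -4.21 to -3.02 (median -3.87) in IVF and from -1.16 to -0.48 (median -0.64) in TSA(+) embryos, without overlap, and its second probe was also called. In TSA(-) embryos Kat2b differed from IVF by 2.55 and Hat1 by 0.83, while Kat8 (0.40) and Kat7 (0.36) were not called. Enzymes and readers of H3K9 and H3K27 methylation, the marks of closed chromatin, held 6 higher and 2 lower of 24 (25 and 8.33% beside 10.2 and 14.3% of all genes; median 0.12), 6 and 0 after median centring and 6 and 3 after quantile normalization. Ehmt1, an H3K9 methyltransferase, ran from 0.97 to 1.38 (median 1.1) in IVF and from 2.62 to 3.61 (median 2.84) in TSA(+) embryos (1.90 ± 0.25). Cbx5, the reader HP1 alpha (1.95 ± 0.22, called on 2 of 3 probes), and Kdm4b, an H3K9 demethylase (1.97 ± 0.37), were higher too, so that writers, readers and erasers of the mark were all among the increases. Without TSA these increases were 1.62 for Ehmt1, 1.91 for Cbx5 and 1.52 for Kdm4b.

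Genes of DNA methylation had 2 higher and 3 lower of 19 (15.8% lower beside 14.3% of all genes). After median centring the counts were 4 and 0, so the balance rests on the scaling. Gadd45g, a stress gene tied to demethylation, was higher (1.16 ± 0.22), and Dnmt3l, the cofactor of de novo methylation, lower (-0.71 ± 0.16), a call lost after median centring (adjusted p 0.02). Zfp57, which protects imprints, was lower (-1.23 ± 0.33), but lost its call with slide as a block (adjusted p 0.018), after median centring (0.015) and in 5 of the 12 fits without 1 array (0.01 to 0.014).

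Core and linker histone genes were lower as a group. Of 52 tested 19 were called lower and 2 higher (36.5 and 3.85% beside 14.3 and 10.2% of all genes; median -0.90; -0.66, -0.69 and -0.59 from all genes within slides 6, 7 and 8, and -0.70 with slide as a block). After median centring 9 were called lower and after quantile normalization 17. H2al3, a germline H2A variant, was at least 8.64-fold lower (-3.44 ± 0.52) with no TSA(+) array above background, and H4f16 ran from -2.35 to -1.49 (median -2.10) in IVF and from -4.31 to -2.65 (median -3.59) in TSA(+) embryos (-1.47 ± 0.30), with a second probe not called. Many histone genes are near-identical copies, so single members are uncertain.

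Lineage regulators of the early embryo were in part lower in TSA(+) clones. Of 29 tested pluripotency and lineage factors 9 were lower and 1 higher (31 and 3.45% beside 14.3 and 10.2% of all genes; median -0.54; -0.38, -0.53 and -0.20 from all genes within slides). Sox2, a core pluripotency factor, ran from 1.89 to 2.61 (median 2.33) in IVF and from -3.29 to -2.18 (median -2.56) in TSA(+) embryos, a difference of -4.94 ± 0.28 (adjusted p 1.5e-13). Eomes, of trophectoderm and mesoderm, ran from 0.46 to 1.15 (median 0.87) in IVF and from -9.22 to -4.16 (median -6.93) in TSA(+) embryos and was at least 163-fold lower (-7.66 ± 0.75, 3 of 6 TSA(+) arrays above background). Neither gene overlapped between the groups. The endoderm factor Sox17 (-4.13 ± 0.79, called on 2 of 3 probes) and the T-box factor Tbx3 (-3.84 ± 0.57) were lower as well, while Pou5f1 (-0.54 ± 0.19) and Nanog (1.15 ± 0.53) were not called, though Pou5f1 passed as lower with normexp (adjusted p 0.0057) and when IVF and both clone groups were fitted alone (0.0046). The 1 gene called higher, named after its value was seen, was Tead4 (2.23 ± 0.22), the factor that starts the trophectoderm programme.

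Protein turnover stood on the other side. Proteasome subunits, which form the particle that degrades ubiquitinated proteins, held 17 higher and 2 lower of 39 (43.6 and 5.13% beside 10.2 and 14.3% of all genes), with a median of 0.56 (0.76 from all genes; 0.46, 0.89 and 0.67 within slides and 0.74 with slide as a block). Psma6, a subunit of the catalytic core, ran from -1.51 to -0.88 (median -1.0) in IVF and from 1.12 to 1.96 (median 1.66) in TSA(+) embryos, without overlap (2.74 ± 0.18, adjusted p 2.9e-12). Psma4 was higher on both of its probes (1.68 ± 0.16). Psmd10, an assembly chaperone encoded on the X chromosome, was lower (-1.44 ± 0.20). Without TSA the median of the proteasome list lay 0.62 from that of all genes.

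Genes of the ribosome followed the same direction. Of 80 cytosolic ribosomal proteins 17 were higher and 3 lower (21.2 and 3.75% beside 10.2 and 14.3% of all genes; median 0.34; 0.53, 0.75 and 0.30 from all genes within slides), which became 26 and 1 after median centring and 32 and 5 after quantile normalization. Rps18 ran from 3.42 to 4.23 (median 3.81) in IVF and from 4.66 to 4.90 (median 4.78) in TSA(+) embryos (0.98 ± 0.17), and the germline-biased paralog Rpl39l was lower (-2.19 ± 0.25). Ribosome biogenesis held 6 higher and 1 lower of 40 (15 and 2.5%; median 0.18; 8 and 0 or 8 and 1 under the other scalings), with Nol6, of the small-subunit processome, 2.12 ± 0.23 higher, although a second Nol6 probe was not called. Translation initiation factors held 8 higher and 7 lower of 52 (15.4 and 13.5%, near the 10.2 and 14.3% of all genes; median -0.10), 10 and 4 after median centring and 11 and 5 after quantile normalization. The GTP exchange subunit Eif2b5 was higher (1.40 ± 0.15), and the lower ones include Eif2s3y and the kinase Eif2ak1 (-1.54 ± 0.25 on 1 of 2 probes), which phosphorylates eIF2 rather than being part of it.

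Mitochondrial respiration genes were more often higher than lower. Of 65 subunits 17 were higher and 6 lower (26.2 and 9.23% beside 10.2 and 14.3% of all genes; median 0.14; 0.18, 0.61 and 0.32 from all genes within slides; 18 and 3 or 18 and 5 under the other scalings). Uqcr11, of complex III, ran from -1.59 to -0.58 (median -1.08) in IVF and from 0.72 to 0.99 (median 0.86) in TSA(+) embryos (1.94 ± 0.23), and Sdhb, of complex II, differed by 1.58 ± 0.21. Glycolysis had 2 higher, Aldoa (1.40 ± 0.16) and Pgam1 (0.67 ± 0.16), and 1 lower, Ldhb (-0.67 ± 0.12), of 19 (median 0.10; 3 and 0 under both other scalings), and the Ldhb call was lost under both alternative scalings (adjusted p 0.014 and 0.017). Cholesterol synthesis had 2 higher and 5 lower of 23 (8.7 and 21.7%; median -0.25; 4 and 3 after median centring), among the lower ones the sterol oxidase Msmo1 (-1.08 ± 0.18) and the X-linked Nsdhl (-0.95 ± 0.23), whose groups overlapped and whose call was lost after median centring (adjusted p 0.018).

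The polymerase II, general factor and Mediator list held 13 higher and 12 lower of 86 (15.1 and 14% beside 10.2 and 14.3% of all genes; median 0.08), which became 17 and 3 after median centring and 17 and 12 after quantile normalization, and the spliceosome list 7 higher and 4 lower of 73 (9.59 and 5.48%; median -0.07; 9 and 1 or 10 and 4 under the other scalings). A large single change was that of Taf7l, an X-linked germline TFIID subunit, which ran from -2.13 to 0.06 (median -0.09) in IVF and from -9.54 to -3.38 (median -8.48) in TSA(+) embryos. It was at least 80.4-fold lower (-7.04 ± 0.84, 2 of 6 TSA(+) arrays above background) on this probe, and a second, dimmer probe was called lower too (-5.42 ± 0.61, 3 of 6). Gtf2h2, of the helicase factor TFIIH, was higher (1.71 ± 0.16), as was the splicing kinase Prpf4b (1.59 ± 0.19), for which only 1 of 3 further probes was called.

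Among cell cycle genes, the kinetochore, checkpoint and cytokinesis list held 6 higher and 5 lower of 47 (12.8 and 10.6% beside 10.2 and 14.3% of all genes; median 0.05), which became 12 and 3 after median centring and 14 and 5 after quantile normalization. Ttk, the checkpoint kinase Mps1, ran from 1.67 to 2.46 (median 2.07) in IVF and from 0.55 to 0.71 (median 0.64) in TSA(+) embryos (-1.45 ± 0.18), while the cytokinesis protein anillin, Anln (1.64 ± 0.24 on 1 of 2 probes), and the microtubule depolymerase Kif2c (1.16 ± 0.23) were higher. DNA replication initiation held 5 higher and 0 lower of 24 (20.8% higher; median -0.03; 7 and 0 or 9 and 0 under the other scalings), including the helicase subunits Gins3 (1.23 ± 0.27, with overlapping groups) and Mcm6 (0.79 ± 0.15). In TSA(-) embryos Gins3 was called higher than in IVF (1.11) and Mcm6 was not called (0.44). Cyclins and their inhibitors held 2 higher and 6 lower of 23 (8.7 and 26.1%; median -0.02; 2 and 4 or 3 and 6 under the other scalings), among them the CDK inhibitors Cdkn2b, which was lower (a difference of -3.94 ± 0.89, 5 of 6 TSA(+) arrays above background, and -3.01 without TSA(+) replicate 4, the array below it), and Cdkn2a, which was at least 2.97-fold lower (-2.74 ± 0.34, 1 of 6 TSA(+) arrays above background).

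Stress and death genes gave 3 higher and 7 lower of 28 in the p53 and apoptosis list (10.7 and 25% beside 10.2 and 14.3% of all genes; median -0.19; 4 and 4 after median centring). Pmaip1, the BH3 protein Noxa, ran from 2.45 to 3.27 (median 3.01) in IVF and from -2.83 to 0.85 (median 0.03) in TSA(+) embryos (-3.16 ± 0.62), and Casp8, the initiator caspase that restrains Ripk3 signalling, ran from -1.41 to -0.35 (median -0.83) and from -3.82 to -2.11 (median -3.42) (-2.38 ± 0.26). Neither overlapped. Heat shock genes held 2 higher and 2 lower of 19 (median 0.00; 2 and 1 or 3 and 3 under the other scalings), which is not far from the 10.2 and 14.3% of all genes, with Hspa4 higher (1.47 ± 0.17, called on 2 of 3 probes) and Hspa2, a germ cell chaperone, lower (-1.31 ± 0.21).

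MHC class I and interferon genes were called about as often as all genes, with 4 higher and 5 lower of 33 (12.1 and 15.2% beside 10.2 and 14.3%; median -0.54 with TSA and -1.04 without, against the same IVF arrays). Ifit3, an interferon-induced antiviral gene, was above background on all IVF and no TSA(+) arrays, at least 19.4-fold lower (-5.50 ± 0.62). H2-Q1, a class I gene with close relatives that its probe may also read, ran from 0.16 to 1.42 (median 0.60) in IVF and from -4.71 to -2.98 (median -3.60) in TSA(+) embryos (-4.43 ± 0.63). Irf1, a factor of the interferon response, was lower (-1.25 ± 0.20) and the ubiquitin-like Isg15 higher (1.28 ± 0.26). A second Irf1 probe was not called.

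Matrix and adhesion genes held 4 higher and 6 lower of 35 (11.4 and 17.1% beside 10.2 and 14.3% of all genes; median -0.44; 4 and 3 after median centring). Lamc1, a laminin chain of the first basement membrane, ran from 0.30 to 1.15 (median 0.91) in IVF and from 2.41 to 2.76 (median 2.66) in TSA(+) embryos (1.84 ± 0.18), and the collagen Col18a1 (1.95 ± 0.27) was higher too. The integrin Itgb3 was lower (-1.61 ± 0.16) on 1 of 2 probes. Zinc finger genes with Zfp names, most of them DNA-binding repressors, held 33 higher and 57 lower of 336 (median -0.18), or 9.82 and 17% beside 10.2 and 14.3% of all genes, and 49 and 31 after median centring, which turns the balance. They ran from Zfp503 (-4.02 ± 0.49), a regulator of neural development, to Zfp292 (3.26 ± 0.35).

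**Figure D3:**
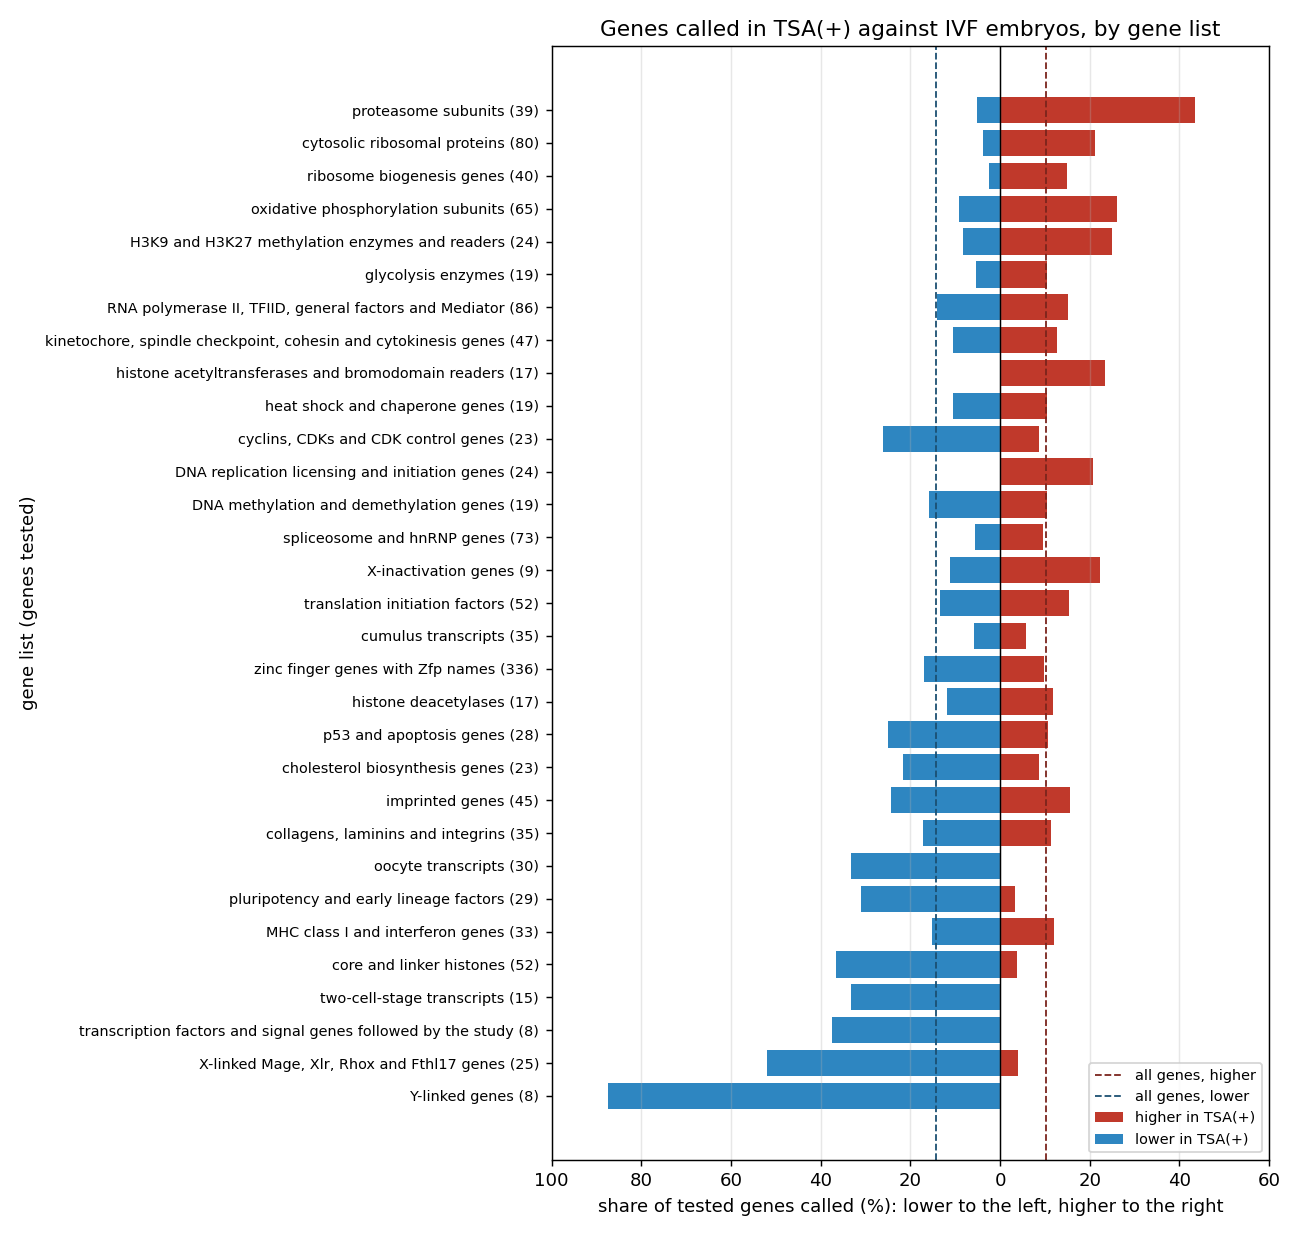
Share of the tested genes of each of 31 lists called lower (bars to the left) or higher (bars to the right) in TSA(+) than in IVF embryos, in percent, ordered by median difference, with dashed lines at the shares of all genes (14.3% lower, 10.2% higher). Proteasome subunits have 43.6% higher and the Y-linked list 87.5% lower.

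Of the 31 lists, 14 had a median at least 0.3 away from that of all genes. Under median centring and quantile normalization all 14 kept the sign of that distance, and 13 of them had it in each of the 3 shared slides. Glycolysis was the exception, with -0.03 in slide 7 against 0.31 over all arrays.

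On the shared slides alone, with 4 IVF and 5 TSA(+) arrays, further genes described here missed the threshold (adjusted p 0.01 to 0.093). They were Obox3, Tcstv1, Cdx4, Bhlhe23, Tnfaip6, Npr2, Kitl, Sirt5, Hat1, Gadd45g, Dnmt3l, Gins3, Mcm6, Pmaip1, Casp8, Sox17, Nsdhl, Sdhb, Kcna6, Tcfl5, Nudt7, Olfr1307, Mdfic, Rhoj, Kat7, Kat8, Ldhb, Pgam1, Sirt3 and Sirt4. All kept their direction in that fit.

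Few genes passed the test between clones with and without the drug. TSA(+) and TSA(-) arrays shared only slide 6, with 1 array of each. Drug and slide can therefore hardly be told apart in this comparison. TSA(+) minus TSA(-), which tests the difference between the deviations of the treated and untreated clones from the shared IVF arrays, had 17 of 39520 probes called higher (0.043%) and 37 lower (0.0936%) by limma, 54 in all, while 6435 had an unadjusted p under 0.05. Of the 54, 23 were also called in TSA(+) against IVF, 12 of them with a gene name. The median difference of all genes from IVF was -0.20 with TSA and -0.12 without. Some genes called against IVF with TSA were not called against IVF without it. Examples, with the TSA(-) difference, are Mcm6 (0.44), Kitl (0.175), Cyp19a1 (-0.79), Npr2 (1.07) and Zfp57 (-0.77). Nsdhl (-0.555), Sirt1 (0.76), Kat7 (0.36) and Kat8 (0.40) are further ones. None of these named genes was called in TSA(+) minus TSA(-).

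Bhlhe23, a basic helix-loop-helix factor of the retina, was higher in TSA(+) than in TSA(-) embryos. It ran from 1.00 to 1.79 (median 1.43) in IVF, from -3.61 to -0.48 (median -1.19) in TSA(+) and from -9.60 to -1.86 (median -8.81) in TSA(-) embryos. TSA(+) minus TSA(-) was 5.82 ± 0.80 (adjusted p 0.00056), a size that is uncertain because only 2 of 8 TSA(-) arrays were above background, and the treated clones differed from IVF by -3.07 ± 0.85. TSA(+) and IVF arrays did not overlap, yet that remaining difference lost its call with slide as a block (adjusted p 0.026), after median centring (0.013) and in 9 of the 12 fits without 1 array (0.01 to 0.024). Kcna6, a potassium channel, and Tcfl5, a germ cell factor, also stood closer to IVF with TSA, -2.83 and -1.89 from IVF against -6.05 and -3.58 without, although only 1 of 8 TSA(-) arrays measured Kcna6 above background.

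Other genes stood farther from IVF with the drug than without. Myo3b, a myosin of hair cells and photoreceptors, was at least 8.06-fold higher than in IVF with TSA (3 of 6 IVF arrays above background) and differed by -0.34 without, where 4 of 8 arrays were above background. Pcnx2, a pecanex-type membrane protein, differed by 1.74 and 0.03, although a second Pcnx2 probe had the opposite sign and was not called. On the lower side were Olfr792 (at least 3-fold with TSA, a difference of -0.04 without), Lrrc49 (-1.96 with and -0.84 without), the sialyltransferase St6gal1 (-0.97 and 0.14) and the endocytic adaptor Dab2 (-1.15 and -0.08). Nudt7, a peroxisomal hydrolase, differed by -0.66 with TSA and 0.32 without, and the odorant receptor Olfr1307 by -0.57 and 0.28. Their calls against IVF were lost with slide as a block (adjusted p 0.027 and 0.041), after median centring (0.077 and 0.054), for Olfr1307 also after quantile normalization (0.55), and in 8 and 9 of the 12 fits without 1 array (0.01 to 0.03 and 0.01 to 0.025). Olfr792, whose TSA(+) arrays were all below background, lost its call after quantile normalization (0.019) and St6gal1 after median centring (0.014).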

How the data were processed

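The deposited scanner files hold the intensity that Agilent Feature Extraction made for every spot (version 9.5.3.1 for oocyte, IVF and clone arrays, 10.5.1.1 for cumulus and Spi-C arrays). The authors' own value table is on the log2 scale, which was found by comparison with the scanner intensities (lowest correlation over arrays 0.9998, median absolute difference 0.0054 after centring). Its medians ran from -0.099 to 0.058 on IVF arrays and from -0.297 to -0.015 on TSA(+) arrays. The paper reports normalization in Gene Spring GX by default settings, and how each array was centred could not be fully recovered from the values.

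From the deposited processed signal, spots marked as outliers were dropped (1820 probe values became missing), log2 signals of a probe's spots were averaged, and the array's 75th percentile was subtracted. Of 41174 probes, 39520 reached an intensity of 10 on at least 1 embryo array and were tested, and 27861 carried a symbol matched through their accession to RefSeq (GRCm38.p6). A gene is counted by its brightest tested probe. limma fitted 5 groups at once (7 oocyte, 6 IVF, 8 TSA(-), 6 TSA(+) and 4 cumulus arrays, 31 in all), and Benjamini-Hochberg adjustment ran over all probes. Slide and scan day were read from the scanner files.

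Named genes followed a rule. It took the 12 largest changes each way among called probes without overlap between groups, bright on every array of the higher group and called under both other scalings, without provisional symbols. It added up to 4 called members of each list, up to 2 uncalled members where the list has a defining one, a fixed set (Xist, Tsix, Ddx3y, Eif2s3y, Spic, Elf3, Eif1a, Ifng, Hipk1, Ppp1r8 and class I deacetylases), and up to 6 genes each way by TSA(+) minus TSA(-). Outside it, Sfmbt2, Tead4, Kdm5d, Uty, Lyz2, Adgre1, the examples of the oocyte and donor lists and the transcription factor families were named after their values were seen. Members of the comparison and the lists were chosen with earlier results of these data known. H13 and H19 matched the histone name pattern and were left out. Some genes that the rule takes are not reported here. List members without a tested probe, Hdac1 among them, were not analysed here.

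Alternatives were median centring, quantile normalization, normexp background correction, the authors' values, other intensity filters, fewer groups in the fit, slide or scan day as a block, replicate number as a block, a one-way test with Tukey's HSD, other thresholds, the mean over a gene's probes, and leaving out each array. A fit of the shared slides alone was added after seeing the data. The code was first tried on simulated data. Software was R 4.3.3 with limma 3.58.1, statmod 1.5.0 and data.table (version 1.17.8), and Python 3.11.15 with numpy 2.4.6, pandas 2.3.3 and matplotlib 3.10.9.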

Additional observations from a re-analysis of the deposited data

Results flagged for a closer look

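In 302 groups of arrays, made of the named genes in IVF or TSA(+) embryos, 28 had an array whose gap to the nearest of the others was large against the whole range. Chance marks about 1 in 20 groups. 3 of these arrays were below background. Values are log2 levels, with the range of the other 5 arrays.

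Among IVF arrays the following stood apart. Ripk3 was low in replicate 6 at -9.32, below background, against -4.04 to -2.23. Dffb was high in replicate 3 at -6.04 against -8.78 to -7.84. Pknox2 was high in replicate 1 at -4.25 against -6.11 to -5.63. Zic1 was high in replicate 2 at 1.43 against -0.61 to 0.12. Olig1 was low in replicate 5 at -0.72 against -0.18 to 0.05. Klf14 was low in replicate 6 at -2.08 against -0.96 to -0.30. Bmp15 was high in replicate 5 at 7.67 against 7.33 to 7.46. Dnmt3l was high in replicate 5 at 4.68 against 4.47 to 4.53. Kif2c was low in replicate 5 at 0.71 against 1.1 to 1.17. Cdkn2b was high in replicate 1 at 0.90 against -1.16 to -0.53. Taf7l was low in replicate 4 at -2.13 against -0.40 to 0.06. Zfp292 was low in replicate 6 at -4.73 against -2.80 to -2.32. Tcfl5 was low in replicate 5 at -2.29 against -1.52 to -1.23.

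Among TSA(+) arrays the following stood apart. Foxd1 was high in replicate 6 at -6.14 against -9.57 to -8.63. Dmrta2 was high in replicate 4 at -4.06 against -9.93 to -9.11. Olig1 was high in replicate 1 at -5.90 against -9.39 to -8.71. Spic was high in replicate 2 at 3.55 against 2.80 to 3.07. Eif1a was low in replicate 1 at 3.0 against 3.29 to 3.46. Uty was high in replicate 3 at -7.68, below background, against -9.60 to -8.95. Rhox13 was high in replicate 2 at -3.33 against -9.49 to -8.00. Hat1 was low in replicate 1 at 0.68 against 1.21 to 1.34. Cdkn2b was low in replicate 4 at -9.05, below background, against -4.18 to -2.90. Gins3 was high in replicate 5 at 2.22 against 1.28 to 1.60. Pmaip1 was low in replicate 6 at -2.83 against -0.09 to 0.85. Nsdhl was high in replicate 1 at 1.26 against 0.28 to 0.60. Kcna6 was low in replicate 2 at -6.65 against -4.55 to -3.48. Tbx20 was high in replicate 1 at -3.30 against -9.45 to -7.20. Trim15 was high in replicate 1 at 1.43 against 0.48 to 0.77.

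Treated and untreated clones differed from each other by limma's test in genes that also differed between TSA(+) and IVF embryos. TSA(+) minus TSA(-) was 5.82 for Bhlhe23, 3.71 for Myo3b, 3.22 for Kcna6, 1.71 for Pcnx2 and 1.68 for Tcfl5. The TSA(-) levels of Bhlhe23 and Kcna6 were above background on 2 and 1 of 8 arrays and those of Myo3b on 4. The same difference was negative at -1.12 for Lrrc49, -1.07 for Dab2, -1.1 for St6gal1, -0.98 for Nudt7, -1.67 for Olfr792 and -0.85 for Olfr1307.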

How the results depend on the processing

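The 3093 higher and 4388 lower probes changed most in number under 3 choices. Centring on the array median gave 2857 lower probes, which moves every difference up by construction. On the shared slides alone, with 4 IVF and 5 TSA(+) arrays and slide as a block, 1711 were higher and 1876 lower. At an adjusted p under 0.05, 7063 were lower. Leaving out 1 array gave 2694 to 2926 higher and 3705 to 4249 lower probes. Under the other alternatives both counts stayed within 1.5 times the reported ones.

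Replicate numbers of IVF and TSA(+) arrays share only a number: correlations of their deviations from the group mean ran from -0.0455 to 0.0648, and 2 of 6 IVF arrays correlated best with their own number. With the replicate block 2890 probes were higher and 4063 lower.

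Of 149 genes named, none reversed under any alternative. 92 of 132 called genes passed the threshold in every fit and 40 missed it in at least 1. The misses numbered 35 on the shared slides alone, 14 after median centring, 10 with slide as a block, 5 after quantile normalization, 5 with IVF and TSA(+) arrays alone, 4 with IVF and both clone groups, 4 with scan day as a block, 4 with Tukey's HSD, 3 with normexp, 2 with the replicate block and 11 without 1 array. Of 17 genes not called, 8 passed it in at least 1 fit, 6 of them when IVF and TSA(+) arrays were fitted alone and 7 with IVF and both clone groups. No list with a relative median of at least 0.3 in size took another sign. The causes were not tested.

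Signal over background limits the dim genes: where a group lay below background, the log2 difference is no size of change. The "at least" values depend on the handling of background too. With normexp, which used an offset of 50, differences were -4.31 for Zic1, -5.35 for Eif2s3y, -5.74 for Foxd1 and -3.99 for Mnx1. Their bounds in the main fit were 8.11, 9.04, 9.30 and 7.64 log2 units. Each kept its call as lower with normexp. Slides 2, 3 and 5 held IVF or TSA(+) arrays but not both, and slide 6 held 1 of each, so within-slide values rest on few arrays. The number of arrays limits precision, the pools hide differences between embryos, and probes of gene copies cannot be assigned to a copy.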

Other observations

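Families of developmental regulators were counted after their values had been seen, because several of the large decreases belonged to them, so their counts are a description. Of all genes 10.2% were called higher and 14.3% lower. Of 36 tested Hox genes, 0 were called higher and 22 lower in TSA(+) than in IVF embryos (61.1% lower; median -2.76; -2.37, -2.85 and -2.0 from all genes within slides 6, 7 and 8). Hoxd10, of the posterior limb and spinal cord, was at least 112-fold lower, with 0 of 6 TSA(+) arrays above background. Fox genes counted 0 higher and 17 lower of 40 (42.5% lower), with the endoderm pioneer factor Foxa2 at least 86.7-fold lower (0 of 6). Sox genes counted 1 and 9 of 19 (47.4% lower), with the neural factor Sox11 at least 60.5-fold lower (3 of 6; a call lost on the shared slides alone, adjusted p 0.052), and T-box genes 0 and 7 of 13 (53.8% lower), with the heart factor Tbx20 at least 58.7-fold lower (1 of 6). Lhx genes counted 0 and 6 of 8 (75% lower), with Lhx1, of the head organizer, at -4.24 ± 0.24. Irx, Zic and Nkx genes counted 4 of 6, 4 of 5 and 5 of 11 lower, none higher. Gata genes went the other way, with 1 higher and 0 lower of 6 and a median 0.24 above that of all genes. The Irx, Zic and Gata families are all too small to set firmly against the shares of all genes. Within each of the 3 slides and under both other scalings the medians of the Hox, Fox, Sox, Tbx, Lhx, Irx, Zic and Nkx genes lay below that of all genes. The Gata median lay above it in all of these.

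Values without the drug stand beside these. The TSA(-) median differed from IVF by -2.32 for Hox, -1.16 for T-box and -2.29 for Lhx genes, beside -2.76, -1.55 and -2.36 with TSA. For Fox and Zic genes it was -0.50 and -1.95, beside -0.73 and -2.53 with TSA. Sox, Irx and Nkx genes went the other way, with -0.90, -2.27 and -1.80 beside -0.86, -2.23 and -1.51. Relative to the median of all genes, which itself differed between the clone groups, Lhx genes were level, at -2.16 without and -2.15 with TSA. These values share the IVF arrays. In TSA(+) minus TSA(-), 0 Hox, 0 T-box and 0 Lhx genes were called, beside 0.043% higher and 0.0936% lower of all 39520 probes. At so low a share, 0 calls say nothing particular about these families. Odorant receptor genes (Olfr), which are dim on these arrays, counted 2 higher and 84 lower of 785 (median -0.46). That is 10.7% lower, below the 14.3% of all genes. The counts became 2 and 55 after median centring and 4 and 44 after quantile normalization. Of these genes 179 were above background on no IVF or TSA(+) array. Relative to all genes the median was -0.26, or -0.05 after quantile normalization. Among the genes of the oocyte list that were higher in TSA(+) embryos was Trim15, a ubiquitin ligase of the TRIM family (3.54 ± 0.25).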
